A study of Mus musculus with 4 samples.

Results

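The genes described here encode receptors of the IL-6 and IL-31 cytokine family, Il6ra, Il31ra, Il6st, Osmr, Lifr and Il11ra1, with Stat3, which is no receptor but the transcription factor that they share. They were given as a list of 7 genes, drawn up with earlier results of these data known, and found in the array's platform annotation by probe sets that list the gene alone. Of these 7 genes 6 had at least 1 such probe set, among 18193 genes with one, and they had 18 probe sets in all. Il11ra1 had 0 and was not analysed here. The samples were whole dorsal skin of male C57B6 mice at postnatal day 59 (P59, late in adult telogen) and postnatal day 54 (P54, the middle of adult telogen), with 2 arrays per age. Telogen is the resting phase of the hair cycle. The labels name no treatment or mutation, and they call them biological replicates without saying how many animals made up a sample, so that p-values measure the spread between these samples alone.

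Cytokines of the IL-6 family signal through receptor complexes in the cell membrane. A subunit that recognises the cytokine, such as the IL-6 receptor chain encoded by Il6ra, joins the shared signalling subunit gp130, encoded by Il6st. LIF and oncostatin M engage Lifr or Osmr, which pass the signal on themselves, and IL-31, an itch cytokine made mainly by T cells, binds a pair of Il31ra and Osmr. The receptors carry JAK kinases, which phosphorylate STAT3, and STAT3 then enters the nucleus and induces, among other genes, its own inhibitor Socs3. In skin these receptors are known from keratinocytes, fibroblasts, immune cells and sensory nerves. In keratinocytes of mice, loss of Stat3 impairs the next entry of resting follicles into growth.

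Sequence before the gene start is shown for Il31ra and Il6ra, the pair of genes all of whose probe sets were highest in P54 replicate 2, and for Il6st, the shared subunit. In the order of protein-coding genes along mouse chromosome 13, Il6st and Il31ra are next to each other, as Osmr and Lifr are on chromosome 15. Each line gives the 250 bases before the start in RefSeq's annotation of GRCm38.p6, in the direction of transcription, with any match to the STAT motif TTCNNNGAA in capitals.
Il31ra (chr13:112580663-112580912, - strand): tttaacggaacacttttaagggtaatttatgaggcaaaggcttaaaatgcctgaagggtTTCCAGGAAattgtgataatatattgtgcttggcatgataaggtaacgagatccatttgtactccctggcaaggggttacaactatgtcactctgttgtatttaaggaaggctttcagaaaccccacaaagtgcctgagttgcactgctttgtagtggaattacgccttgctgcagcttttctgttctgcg
Il6ra (chr3:89913197-89913446, - strand): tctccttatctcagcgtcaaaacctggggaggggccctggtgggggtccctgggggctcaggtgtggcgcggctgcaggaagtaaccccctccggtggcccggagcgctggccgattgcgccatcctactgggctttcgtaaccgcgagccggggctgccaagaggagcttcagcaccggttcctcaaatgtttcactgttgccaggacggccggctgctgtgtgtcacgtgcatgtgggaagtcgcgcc
Il6st (chr13:112463820-112464069, + strand): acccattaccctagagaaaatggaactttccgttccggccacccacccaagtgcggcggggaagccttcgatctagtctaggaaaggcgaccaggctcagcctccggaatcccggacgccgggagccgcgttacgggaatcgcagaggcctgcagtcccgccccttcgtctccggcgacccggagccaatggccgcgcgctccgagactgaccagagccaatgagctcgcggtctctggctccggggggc
The window of Il31ra held the match TTCCAGGAA, whose first base lies 191 bases before the start. The motif is its own reverse complement, so 1 search covers both strands, and 7.02% of 32851 promoter windows of this length held a match. Of the 9 windows listed for the 7 genes, that of Il31ra was the 1 with a match. No other motif was searched. A match is a run of letters and was not tested for binding. The Il31ra window had a GC content of 42.0%, against 65.2% for Il6ra and 66.0% for Il6st.

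Values are log2 of the intensity that the authors' RMA procedure gave for each probe set, a group of short probes to 1 transcript. RMA normalizes all arrays to a common distribution. A level on this scale can be compared between arrays for the same probe set but not between probe sets. The main set of each gene was chosen by its mean level over all 4 arrays, the brightest set being taken. That mean is the measured value selected on, and it is given as a description. It was 7.01 for the main set of Il6ra and 6.78 for its other set, and 10.16 and 9.82 for the leading pair of Stat3 sets, the closest choices. The choice for Il6ra rested on P54 replicate 2, where its main set was at 9.24 and its other set at 7.61. Over the remaining arrays the other set was the brighter on average. Genes were tested if the mean of their main set exceeded the 40th percentile over genes, a log2 intensity of 6.58. All 6 measured genes passed this limit by their mean over all arrays, and 15 of their 18 probe sets did. The sets nearest to it were 1422270_a_at of Il6ra above it, at 6.78, and 1424272_at of Stat3 below it, at 6.03.

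Arrays differed in ways that touch these genes. Spearman correlations across tested genes ran from 0.915 to 0.976 between arrays, and P59 replicate 2 had the lowest with each of the others. The array carries control sets to the 3′ and the 5′ part of the Gapdh and Actb transcripts, and the 3′ set of Gapdh exceeded the 5′ set by 0.23 and 4.57 log2 units in P59 replicates 1 and 2, against 0.34 and 0.20 in P54 replicates 1 and 2. For Actb the excess was 0.18 and 1.64 at P59, against 0.45 and 0.52 at P54. P59 replicate 2 thus had the highest 3′ to 5′ ratio for both controls, a sign of RNA quality. Of the 18 probe sets 9 were lowest on that array. The 6 probe sets highest in P54 replicate 2 belonged to Il6ra, Il31ra, Il6st and Stat3.

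P59 was compared with P54 in limma, a linear model with variances moderated across genes, over 10916 genes, with Benjamini-Hochberg adjustment. Of the 6 measured genes 0 passed an adjusted p of 0.05 in limma, where 2 of 10916 genes did (0.0183%), and the smallest adjusted p was 0.290, of Il31ra. At an unadjusted p under 0.05, 2 of the 6, Il6ra and Il31ra, were lower at P59, against 3.01% of all tested genes lower. The unadjusted p of Il6ra in limma was 0.0586 without the intensity filter and 0.0838 with the mean of its sets. It was 0.0547 after repeated quantile normalization, so under these alternatives Il6ra did not keep a p under 0.05. Under others it did, with 0.00235 for arrays centred on their median and 0.0162 with an intensity trend in the variance prior. Il6ra passed the intensity limit, and had its main set chosen, only through its level in P54 replicate 2. Its difference and its place in these counts thus depend on the group where it was high. The groups of Il6ra and Il31ra were also the 2 of 6 that did not overlap, against 33.7% of tested genes in either direction and 14.8% lower. The median difference was -0.08 over the 6 genes and 0.05 over all genes tested. Since the genes were chosen with this contrast known, these counts describe them and support nothing further.

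**Figure D1:**
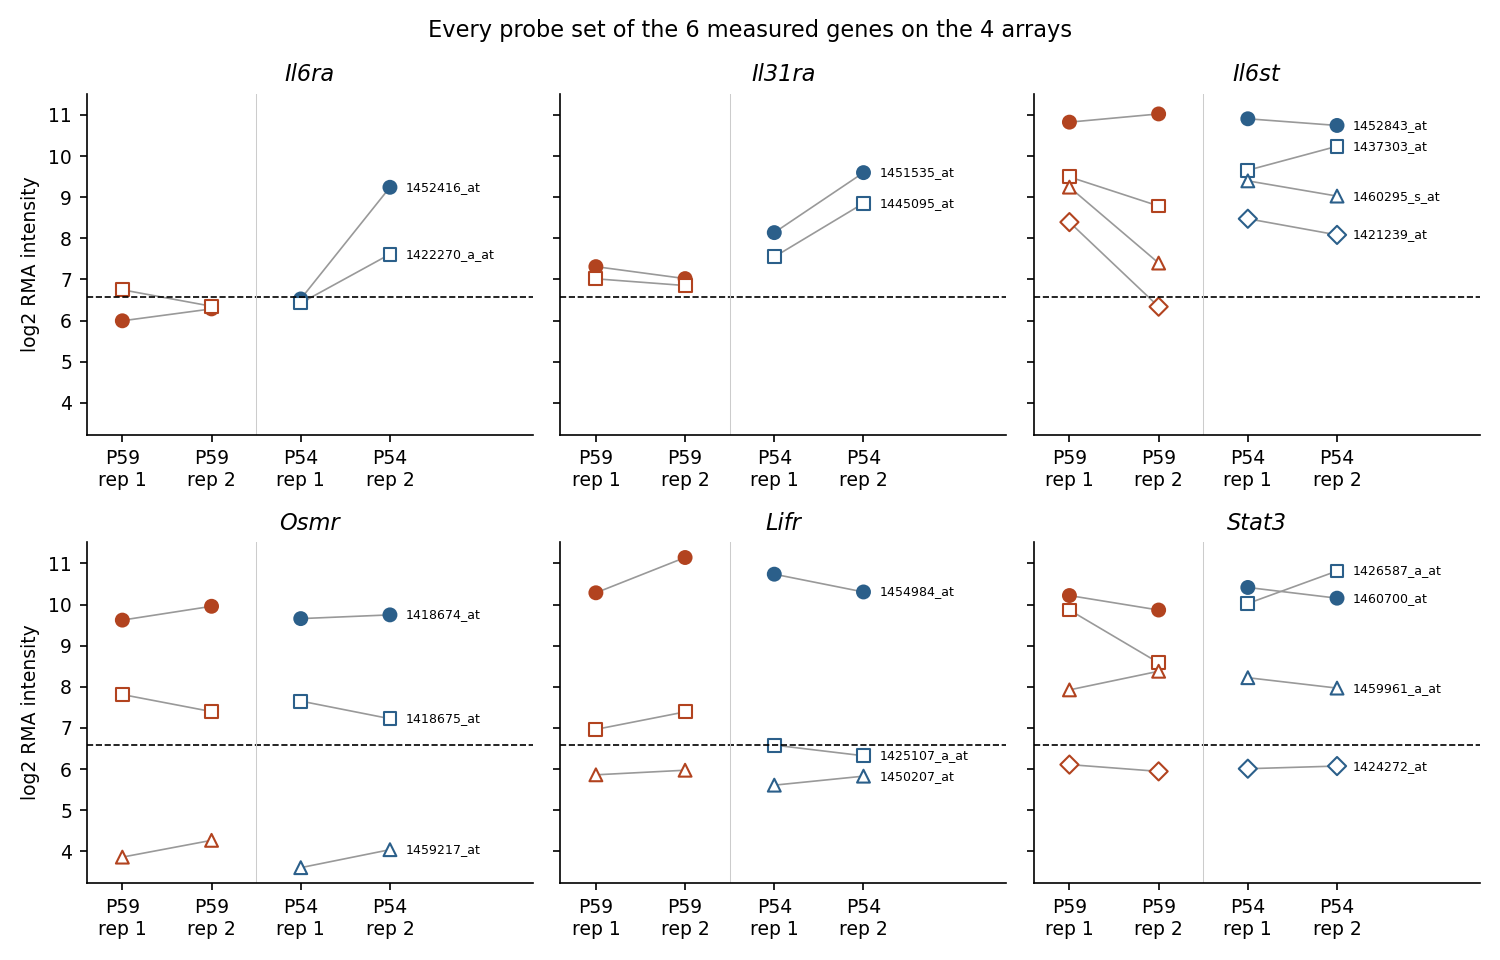
Log2 RMA intensity of every probe set of the 6 measured genes (vertical axis) on the 2 P59 arrays (red, left) and the 2 P54 arrays (blue, right). Filled circles are the main set of each gene, open symbols its other sets, lines join the arrays of 1 age and the dashed line marks the intensity limit of 6.58. Both sets of Il31ra and both of Il6ra were highest in P54 replicate 2, while 3 of the 4 Il6st sets were lowest in P59 replicate 2.

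Among the subunits that recognise a cytokine, Il31ra, the chain that binds IL-31, was at 7.31 and 7.02 in P59 replicates 1 and 2, against 8.14 and 9.60 in P54 replicates 1 and 2. Both P59 arrays lay below both P54 arrays, and P54 replicate 2 stood well above P54 replicate 1. The means were 7.17 ± 0.21 at P59 and 8.87 ± 1.03 at P54 (SD, n = 2 each), a difference of -1.70 (95% interval -2.58 to -0.82, adjusted p = 0.290 in limma), or 3.25-fold lower at P59. Of the 10916 tested genes 10 had a more negative difference. The other set of Il31ra, 1445095_at, was at 7.02 and 6.85 at P59, against 7.55 and 8.85 at P54, a difference of -1.27. Its arrays stood in the same order.

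Il6ra, the chain that binds IL-6, was at 5.995 and 6.28 at P59, against 6.53 and 9.24 at P54. P54 replicate 2 was set apart from the other 3 arrays, all of which lay below the intensity limit of 6.58. The means were 6.14 ± 0.20 at P59 and 7.88 ± 1.92 at P54 (SD, n = 2 each), a difference of -1.74 (95% interval -3.18 to -0.31, adjusted p = 0.618 in limma). A fold from such a dim level is rough. The other set, 1422270_a_at, was at 6.75 and 6.35 at P59, against 6.43 and 7.61 at P54, with overlapping groups and a difference of -0.47. It too was highest in P54 replicate 2.

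The size of both differences rested on P54 replicate 2. Without that array Il6ra differed by -0.39 and Il31ra by -0.97. Without P54 replicate 1 the differences were -3.10 and -2.43, with P54 replicate 2 as the lone P54 array. A fit with 1 array at an age has no spread there, so no p-value is given for these differences. Without P59 replicate 2, the array with the high 3′ to 5′ ratios, the differences were -1.89 and -1.56. Main sets stood above the next highest array by 2.71 for Il6ra and 1.46 for Il31ra in P54 replicate 2. Counting the gene itself, 2 and 10 of the 10916 tested genes stood as far above or farther there. Il6ra was among the tested genes only through its level on that array, so its count reuses the value that admitted it.

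**Figure D2:**
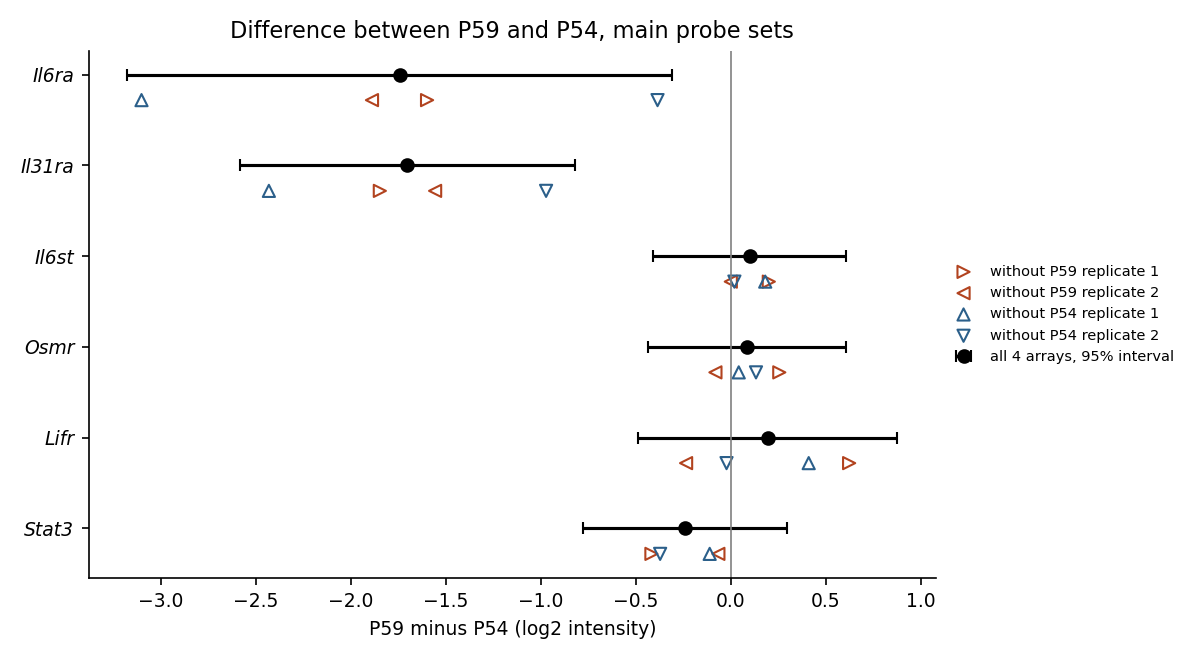
Difference in log2 intensity between P59 and P54 (horizontal axis) for the main set of each gene. Black points and bars are the difference over all 4 arrays with its 95% interval from limma, and open triangles are the difference with 1 array left out. Il6ra ranged from -3.10 to -0.39 and Il31ra from -2.43 to -0.97, and the other 4 genes had intervals that span 0.

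The shared signalling subunit gave different answers by probe set. The main set of Il6st, 1452843_at, was at 10.82 and 11.02 at P59, against 10.91 and 10.74 at P54, with overlapping groups and a difference of 0.10 (95% interval -0.41 to 0.61, adjusted p = 0.978 in limma). The other sets were lower at P59 on average. Set 1437303_at was at 9.49 and 8.79 at P59, against 9.66 and 10.24 at P54, a difference of -0.81 between groups that did not overlap. Set 1460295_s_at, whose suffix marks probes shared between transcripts, was at 9.24 and 7.40 at P59, against 9.40 and 9.03 at P54. Set 1421239_at was at 8.39 and 6.34 at P59, against 8.48 and 8.08 at P54. In these last sets, listed with the same accession, P59 replicate 1 lay between the P54 arrays and P59 replicate 2 lay well below all others, by 2.06 and 1.85 log2 units under P59 replicate 1 for 1421239_at and 1460295_s_at. The drop fell on the array whose Gapdh and Actb controls had the highest 3′ to 5′ ratios, and the part of RNA quality in it was not tested. With the mean of all 4 sets Il6st differed by -0.63, against 0.10 for the main set.

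**Figure D3:**
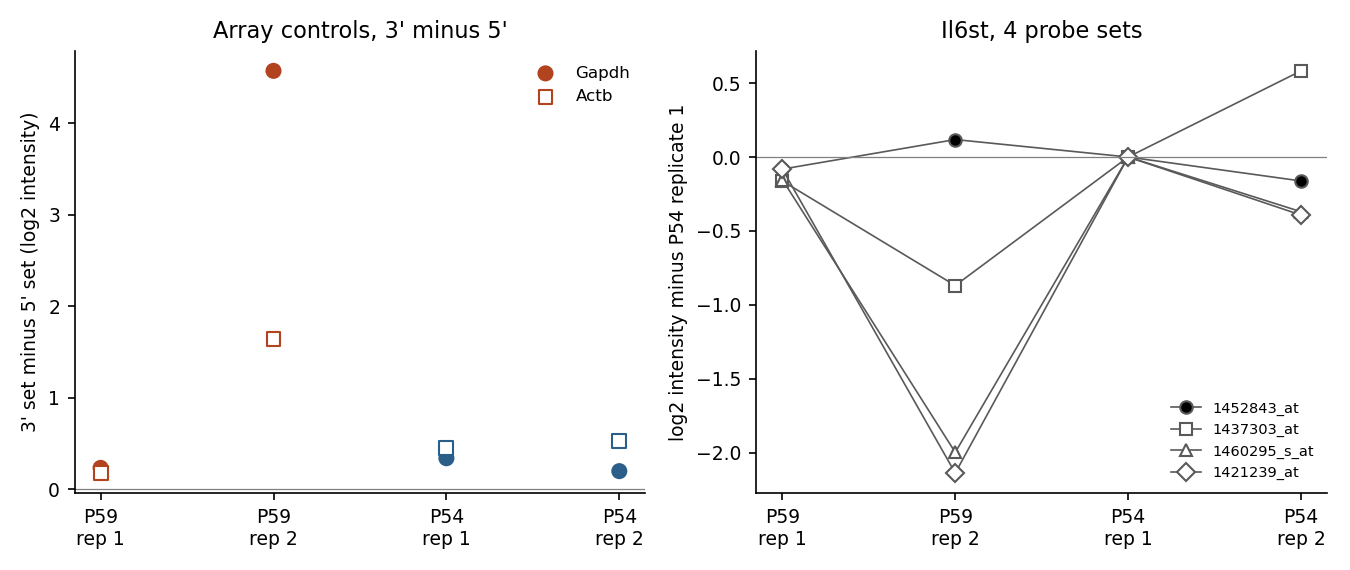
Left, the excess of the 3′ over the 5′ control set (log2 intensity, vertical axis) for Gapdh (filled) and Actb (open) on each array. Right, the 4 probe sets of Il6st relative to P54 replicate 1 (log2 intensity). P59 replicate 2 had an excess of 4.57 for Gapdh, and the same array held the lowest value of 3 Il6st sets but the highest of the main set.

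Of the signalling partners of gp130, Osmr, which serves oncostatin M and is the second chain of the IL-31 receptor, was at 9.62 and 9.96 at P59, against 9.66 and 9.75 at P54. The P54 arrays lay between the P59 arrays. The difference was 0.09 (95% interval -0.43 to 0.61, adjusted p = 0.984 in limma), while Il31ra, its partner chain, had an interval wholly below 0. A test of the difference between these genes was not run. The other sets of Osmr differed by 0.17 (1418675_at) and 0.24 (1459217_at, at 3.60 to 4.27 and so below the intensity limit). All 3 sets had overlapping groups.

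Lifr, the LIF receptor chain, was at 10.29 and 11.14 at P59, against 10.74 and 10.31 at P54. The P59 arrays were the lowest and the highest of the 4. The difference was 0.19 (95% interval -0.49 to 0.88, adjusted p = 0.969 in limma). It was -0.24 without P59 replicate 2, -0.02 without P54 replicate 2 and 0.62 without P59 replicate 1. Set 1425107_a_at was at 6.97 and 7.39 at P59, against 6.58 and 6.32 at P54, groups that did not overlap, with a difference of 0.72 (unadjusted p = 0.0250 and adjusted p = 0.855 over all probe sets in limma). Set 1450207_at, below the intensity limit, differed by 0.20, and all 3 sets of Lifr were higher on average at P59 and highest in P59 replicate 2.

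Stat3, which carries the signal of all these receptors to the nucleus, was at 10.22 and 9.87 at P59, against 10.42 and 10.16 at P54. The groups overlapped, and the difference was -0.24 (95% interval -0.78 to 0.29, adjusted p = 0.949 in limma). It was -0.066 without P59 replicate 2, -0.11 without P54 replicate 1, -0.42 without P59 replicate 1 and -0.37 without P54 replicate 2. Set 1426587_a_at was at 9.87 and 8.58 at P59, against 10.03 and 10.82 at P54, a difference of -1.20 between groups that did not overlap. It was lowest in P59 replicate 2 and highest in P54 replicate 2, as Il6st set 1437303_at was. Sets 1459961_a_at and 1424272_at differed by 0.06 and -0.01. The protein's phosphorylation, by which it is switched on, is not measured on these arrays.

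Most of the cytokines themselves were below the intensity limit or had no probe set. Of 12 listed ligands, the related cytokine Tslp among them, 9 had a probe set and 3 passed the intensity limit. Il6 lay at 3.84 and 4.04 at P59, against 3.92 and 3.65 at P54, and Il31 at 3.51 and 3.46, against 3.37 and 3.21. Lif (5.27 to 5.54), Osm (6.17 to 6.48) and Tslp (4.74 to 5.34) were also below the limit on all 4 arrays. Such dim sets carry no reliable difference. The tested ligands Il11, Ctf1 and Clcf1 differed by -0.21, 0.07 and -0.07.

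Of the other cytokine receptors, JAK kinases and STAT factors, 0 of 19 tested genes had an unadjusted p under 0.05 in limma in either direction, against 6.49% of all tested genes, and 0 had an adjusted p under it. Among receptors 6 of 9 were higher and 3 lower on average. Crlf2, the receptor chain for TSLP, was at 8.18 and 8.05 at P59, against 7.64 and 7.64 at P54 (difference 0.48, adjusted p = 0.783 in limma). Il22ra1, the IL-22 receptor chain of epithelia, was at 7.06 and 6.70 at P59, against 7.37 and 7.34 at P54 (-0.47, adjusted p = 0.828). These groups did not overlap. Il7r, a lymphocyte receptor chain, differed by 0.63 (0.13 without P59 replicate 2), and Il4ra, the receptor chain for IL-4 and IL-13, by 0.34. Jak1, the main kinase of gp130, differed by 0.13, Stat2 of the interferon pathway by 0.35, the lymphoid kinase gene Jak3 by -0.28, Stat5a by -0.22 and the adaptor gene Grb2 by -0.22. Without P59 replicate 2 Jak3, Stat5a and Grb2 differed by -0.023, -0.056 and -0.091, and without P59 replicate 1 by -0.54, -0.39 and -0.34. With the mean of its probe sets Stat5a differed by -0.76.

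Inhibitors of the pathway were lower on average in 10 of 15 tested genes and higher in 5, where 41.6% of all tested genes were lower. At an unadjusted p under 0.05 in limma 1 was lower and 0 higher, against 3.01% lower and 3.47% higher of all tested genes. Socs3, the feedback inhibitor that binds gp130, was at 8.55 and 8.39 at P59, against 9.14 and 8.69 at P54. The P59 arrays were the lower pair, with a difference of -0.44 (95% interval -0.99 to 0.10, adjusted p = 0.870 in limma). Leaving out P54 replicate 1 gave -0.22, and leaving out P54 replicate 2 gave -0.67. Cish, the STAT5-induced inhibitor, was at 8.33 and 7.96 at P59, against 8.73 and 8.59 at P54 (-0.51, adjusted p = 0.783 in limma). Pias3, an inhibitor of STAT3, differed by -0.41. Pias4 differed by -0.93 (adjusted p = 0.739 in limma), and was at 8.35 and 7.53 at P59, against 8.28 and 9.45 at P54. Its groups overlapped, and without P54 replicate 2 it differed by -0.35.

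Of 20 genes that STAT3 is known to induce, 19 were tested, 13 of them lower and 6 higher on average, with a median difference of -0.12. The untested gene, Lcn2, lay below the intensity limit on every array. It was at 6.03 and 6.45 at P59, against 4.83 and 5.00 at P54, groups that did not overlap. It thus lay higher at P59, by 1.33, but so dim a set carries no reliable difference. At an unadjusted p under 0.05, 3 of the 19 tested genes were lower and 0 higher. Of all tested genes 3.01% were lower and 3.47% higher at that p. None of the 19 had an adjusted p under 0.05 in limma. Those 3 were Fos, Junb and Pim3. Other pathways induce Fos and Junb too, as immediate early genes. Junb, an AP-1 subunit, was at 7.80 and 6.71 at P59, against 8.09 and 8.44 at P54 (difference -1.01, adjusted p = 0.575 in limma), and differed by -0.46 without P59 replicate 2. Pim3, a survival kinase gene, was at 9.91 and 10.13 at P59, against 10.51 and 10.66 at P54 (-0.57, adjusted p = 0.723 in limma). Fos was at 9.64 and 9.65 at P59, against 12.19 and 9.85 at P54 (-1.37, adjusted p = 0.726 in limma). Its difference lay in P54 replicate 1, and was -0.20 without that array. Without P54 replicate 2 Fos differed by -2.55, and without P59 replicate 1 Junb differed by -1.55. Cebpd, a transcription factor gene of the acute phase response, differed by -0.68 and by -0.06 without P59 replicate 1. Over all 56 tested genes of the 5 lists, inhibitors included, 60.7% were lower, against 41.6% of all tested genes. The lists too were chosen with earlier results of these data known. Their counts and shares thus describe the listed genes and support nothing further.

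**Figure D4:**
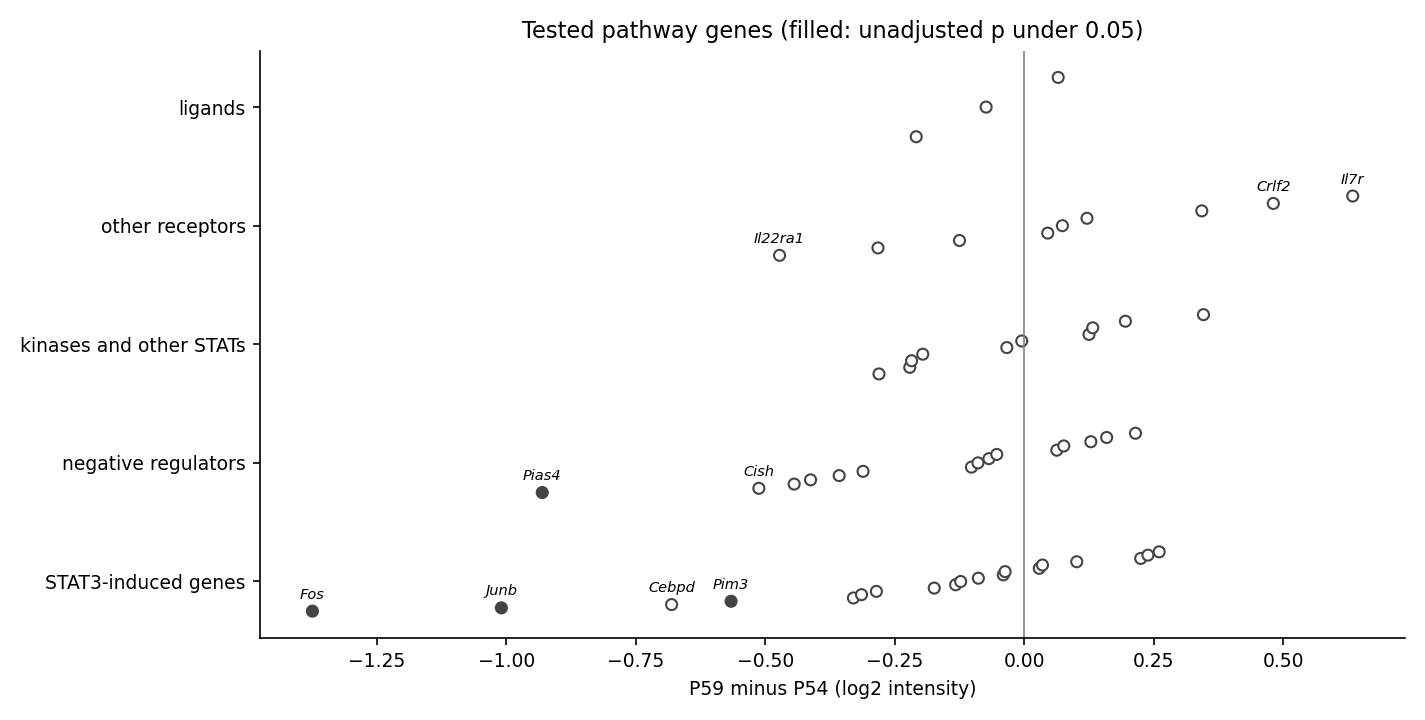
Difference in log2 intensity between P59 and P54 (horizontal axis) for each tested gene of the 5 pathway lists, 1 point per gene, spread vertically for legibility. Filled points had an unadjusted p under 0.05 in limma: Fos, Junb, Pim3 and Pias4, all with negative differences from -1.37 to -0.57. With all 4 arrays and no replicate block none had an adjusted p under 0.05 in limma.

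Il6ra and Il31ra were the 2 of 6 measured genes whose main set spanned at least 1 log2 unit over the arrays (3.25 and 2.58). The tested genes most like them were found by the Euclidean distance between log2 levels over the 4 arrays, each gene centred on its own mean. Those nearest to Il31ra were Crim1 (distance 0.44), Fam81a (0.44) and Rbfox2 (0.51), and those nearest to Il6ra were Fam81a (0.65), Crim1 (0.71) and Arhgap32 (0.81). Il31ra and Il6ra lay 0.98 apart, with 26 tested genes nearer to Il31ra than Il6ra was. Crim1, which encodes a membrane protein that binds BMPs, was at 7.40 and 7.05 at P59, against 8.14 and 10.13 at P54. Fam81a was at 6.61 and 6.82 at P59, against 7.47 and 9.27 at P54. Each of these 4 genes was highest in P54 replicate 2, which follows from their choice by distance to Il6ra and Il31ra. For Crim1, Rbfox2 and Arhgap32 the next brightest set, below the intensity limit in Crim1 and Arhgap32, was highest on another array: 1452253_at of Crim1 was at 5.76 and 6.25 at P59, against 6.13 and 5.78 at P54, and 1434938_at of Rbfox2, an RNA splicing factor gene, was at 6.74 and 6.46, against 6.95 and 6.90. The dim sets of Crim1 and Arhgap32 carry no reliable difference, and Fam81a had no other set. Both sets of Il6ra and both of Il31ra were highest in P54 replicate 2. Whether this sets the receptors apart from the nearest genes was not tested.

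**Figure D5:**
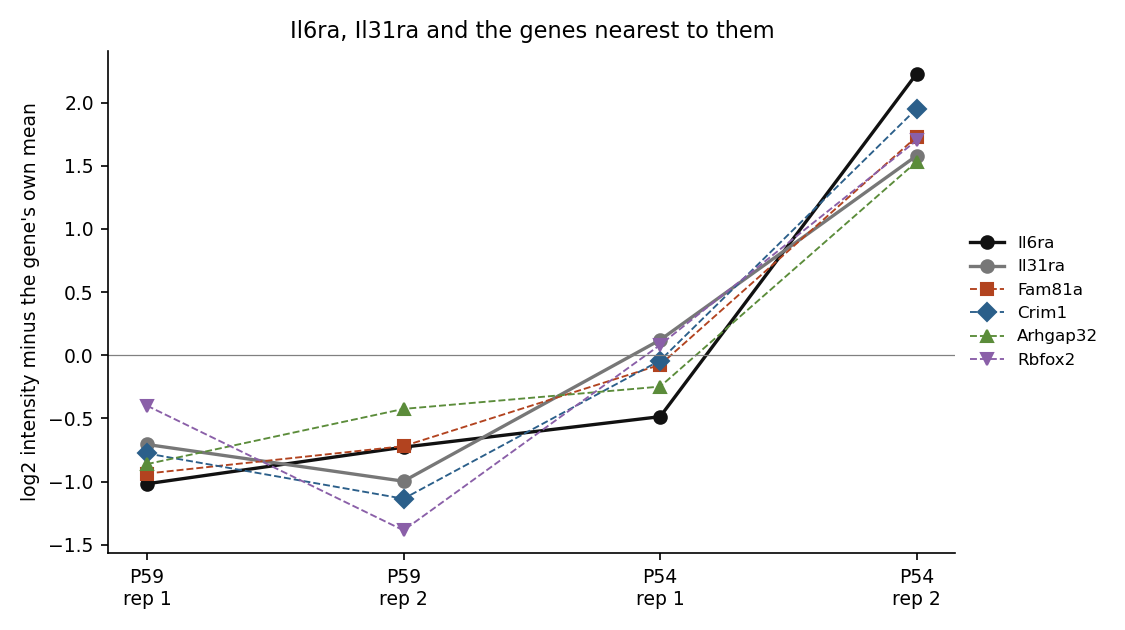
Log2 intensity minus the gene's own mean (vertical axis) on the 4 arrays for the main sets of Il6ra and Il31ra (solid lines) and of the 4 genes nearest to them (dashed lines). Lines join the points of 1 gene and carry no order of replicates. All 6 genes were highest in P54 replicate 2, which for the 4 nearest genes follows from their choice by distance.

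Markers of skin cell types were set beside these levels. The summed intensity of 6 basal keratinocyte markers was 29498 and 25960 at P59, against 35023 and 37884 at P54, and all 6 were lower on average at P59, with 4 of them highest in P54 replicate 2. That of 6 macrophage markers was 6858 and 9501 at P59, against 6577 and 5678 at P54, with all 6 higher on average. The largest shift was that of 5 inner root sheath markers, which summed to 10931 and 1949 at P59, against 621 and 163 at P54, with all 5 higher on average and a median difference of 3.75. Of the other tested markers, 5 of 5 of adipocytes were lower on average (median difference -0.44), as were 2 of 2 of Schwann cells (-0.41). Basal keratinocyte, adipocyte and Schwann cell markers, all lower where tested, thus lay in the direction of Il31ra and Il6ra on average. Inner root sheath, macrophage and T cell markers, all higher where tested, lay in the opposite one. Other types with tested markers were mixed. Suprabasal keratinocyte (4 of 6, median difference -0.07) and endothelial markers (4 of 6, -0.18) were mostly lower. Mast cell (3 of 5, 0.34) and fibroblast markers (4 of 6, 0.03) were mostly higher, and skeletal muscle had 3 each way. The suprabasal sum, like the basal one, was highest in P54 replicate 2, at 51726. Unlike the receptors, only 1 of the 5 adipocyte markers and 0 of the 2 Schwann cell markers were highest in P54 replicate 2. Their sums were highest in P54 replicate 1, at 16518 and 3276, against 14377 and 2158 in P54 replicate 2. The 5 T cell markers with a probe set summed to 673 and 768 at P59, against 718 and 557 at P54, and all 5 neutrophil markers with a probe set were below the intensity limit. The part of these cells in the receptor levels was not tested. In whole skin, fewer cells of a type and less RNA per cell cannot be told apart.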

How the data were processed

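Dorsal skin at P59 and P54 was measured on 2 arrays each. The authors deposited 1 table of linear intensity values for 45101 probe sets. Per the submitters' processing notes these were made with RMA in Affymetrix Expression Console, and the sources used here give neither versions nor a genome build. The intensity values were taken to log2 with no pseudocount. The platform annotation from GEO may be out of date. It named 34945 sets with 1 gene symbol, after leaving out 64 control sets. Another 932 sets had several symbols and 9211 were unlisted, and all of these were left out. Symbols were matched by Entrez identifier to RefSeq's annotation of GRCm38.p6 (34741 sets matched).

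The test of P59 against P54 used lmFit and eBayes of limma 3.58.1 in R 4.3.3 over 10916 genes, with 2 residual degrees of freedom and 8.18 prior ones, and Benjamini-Hochberg adjustment over all of them. The 3 ways to split 4 arrays into pairs allow no exact permutation p near 0.05. The number of arrays limits precision. The procedure was tested on simulated data. Alternatives changed the intensity filter, the probe set rule, the scaling, the variance prior, a replicate block and the arrays used.

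The members and the gene lists were chosen with earlier results of these data known. Named genes were all members, up to 4 genes of each list with the smallest unadjusted p, Socs3, Jak1, Il6, Osm, Lif, Il31 and Tslp, and, for members spanning at least 1 log2 unit, the 3 nearest genes, passing over clone and Y-linked symbols. The 3′ to 5′ ratios of control sets were taken up after the data were seen.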

Additional observations from a re-analysis of the deposited data

How the results depend on the processing

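For the 6 measured genes 59 of 73 alternative values kept the direction and the side of the adjusted threshold. Il6st reversed with the mean of its sets (-0.63) and in sets 1421239_at (-0.91), 1437303_at (-0.81) and 1460295_s_at (-0.89), and Stat3 in set 1459961_a_at (0.057). Leaving out 1 array, differences ranged from -0.00083 to 0.20 for Il6st, -0.082 to 0.25 for Osmr, -0.24 to 0.62 for Lifr, -0.075 to 0.21 for Ctf1 and -0.43 to 0.28 for Clcf1. With the mean of probe sets Clcf1 (0.12), Il4ra (-0.042), Stat2 (-0.061, and -0.47 in set 1450403_at) and Jak1 (-0.22) reversed. Il31ra passed when arrays were centred on their median (-1.66, adjusted p = 0.0298 in limma). Its difference was slightly smaller there than the -1.70 of the main fit, so this pass does not rest on a larger difference. Its adjusted p in limma was 0.635 without the intensity filter and 0.662 with the mean of its sets. It was 0.568 after repeated quantile normalization and 0.216 with an intensity trend in the variance prior.

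Genes past the adjusted threshold in limma numbered 2 with all arrays. They numbered 0 without the intensity filter, with a filter at the 60th percentile, with the mean of probe sets, with every probe set tested singly or after repeated quantile normalization. They numbered 49 with centred arrays, 156 with the replicate block and 29 to 402 with 1 array left out. At an unadjusted p under 0.05 there were 708 genes, 1122 without the filter, 457 with the stricter one and 273 to 2030 with 1 array left out. Pathway genes at that p numbered 0 higher and 4 lower. Higher ones numbered 2 without the filter, 1 each with the mean of probe sets, repeated quantile normalization, centred arrays or the replicate block, and 0 to 1 with 1 array left out. Lower ones numbered 2 after repeated quantile normalization and 2 to 5 with 1 array left out. The cause was not tested.

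The labels do not say whether replicate numbers pair the samples. The within-group deviations of P59 and P54 correlated at -0.037 over 10916 genes. This cannot decide the question, as each deviation comes from 1 pair of arrays. With the replicate block, which leaves 1 residual degree of freedom, Il6ra (adjusted p = 5.86e-06), Il31ra (1.01e-05) and, of the pathway genes named, Fos (0.00126) passed in limma at unchanged differences. Among the genes named, p in that fit followed the size of the difference alone, whatever the spread of the gene. The block also assumes a pairing that the labels do not give, so these passes add no support.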
